A study of Homo sapiens with 32 samples.

Results

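The genes described here encode proteins that carry a BTB domain, many of them substrate adaptors. KLHL and KBTBD proteins join the BTB domain to kelch repeats, and the KCTD family has no kelch repeats. SPOP and its paralogue SPOPL join the BTB domain to a MATH domain. Members were chosen by gene symbol among all genes counted, and 69 symbols matched. Of these, 56 were kept because at least 1 group of libraries had a mean of 1 CPM (counts scaled to library size) or more: 28 of 37 KLHL genes, 19 of 21 KCTD genes, 7 of 9 KBTBD genes, SPOP and SPOPL. KLHL41 lay just inside this threshold, with a highest group mean of 1.13 CPM in 22Rv1 shCSN5 cells, and KLHL30 lay just outside it, with 0.787 CPM in 22Rv1 DMSO cells. The set is referred to here as BTB adaptor genes, since not all of its members carry kelch repeats. The name does not mean that every member acts with the cullin CUL3, which was not tested.

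RNA was sequenced from 4 human prostate cancer cell lines obtained from ATCC, LNCaP, C4-2, 22Rv1 and PC3, to study what inhibition of CSN5 does in these cells. In the knockdown experiment each line was infected with an shRNA against CSN5 (shCSN5) or with a scramble shRNA. In the inhibitor experiment LNCaP and 22Rv1 cells received 5 µM CSN5i-3, PC3 cells received 10 µM CSN5i-3, and their controls received DMSO. Each group had 2 libraries, and all 4 lines were bulk cultures, so fewer cells of a type and less RNA per cell cannot be told apart. For C4-2, the labels of the inhibitor experiment conflict: DMSO is the description of the 2 libraries with C5i in the title, and 1 µM CSN5i-3 is that of the 2 libraries with NT in the title. These 4 libraries are therefore named by title (titled C5i over titled NT) and enter no fit across lines.

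BTB adaptors that act with CUL3 bind it through the BTB domain and bind a substrate through another domain. This brings the substrate to a ubiquitin ligase built on CUL3 and the RING protein RBX1. The ligase is switched on when NEDD8 is attached to the cullin, and CSN5, the catalytic subunit of the COP9 signalosome encoded by COPS5, removes NEDD8 again, which allows adaptors to be exchanged. Several adaptors are known to be ubiquitinated within their own ligase, and SPOP is one of the genes most often mutated in prostate cancer. The deposited counts report transcripts and not adaptor proteins.

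Library totals were 20.6 to 32.5 M counts in the knockdown experiment and 29.5 to 50.9 M counts in the inhibitor experiment, and the 56 adaptor genes took 0.129 to 0.243% of the counts of a library. COPS5 was measured at 2.90 and 1.79 CPM in LNCaP shCSN5 cells, against 53.4 and 52.7 CPM in scramble cells. Its log2 fold change was -4.50 ± 0.26 in LNCaP, -3.56 ± 0.12 in C4-2, -2.68 ± 0.11 in 22Rv1 and -3.18 ± 0.12 in PC3 (edgeR, ± SE throughout, adjusted p = 0.00021, 1.2e-05, 3.4e-08 and 0.0022). The summed level of 6 luminal prostate markers was 5039 to 5158 CPM in LNCaP shCSN5 cells, against 5976 to 6089 CPM in scramble cells, and 1000 to 1013 CPM in LNCaP CSN5i-3 cells, against 4356 to 4487 CPM in DMSO cells. In LNCaP shCSN5 cells 3 of these 6 markers were called lower and 1, TMPRSS2, higher (0.86 ± 0.11). All 6 of these markers passed the test as lower in LNCaP CSN5i-3 cells, and their part in the adaptor results was not tested. In PC3 cells KLK2 was at 0, and 4 markers typical of that line summed to 2148 to 2152 CPM in shCSN5 cells, against 2999.5 to 3048 CPM in scramble cells, all 4 called lower. The 5 fibroblast markers summed to 15.9 CPM in both PC3 CSN5i-3 libraries, against 60.4 to 65.1 CPM in DMSO cells, and 2 of the 3 tested were called lower. Both lists went the other way in 22Rv1 CSN5i-3 cells. There the PC3 markers summed to 207 to 233 CPM, against 88.9 to 99.2 CPM in DMSO cells. The fibroblast markers summed to 32.4 to 33.6 CPM, against 13.6 to 14.8 CPM. In LNCaP shCSN5 cells the PC3 markers summed to 24.3 to 24.6 CPM, against 5.85 to 6.51 CPM in scramble cells. In C4-2 shCSN5 cells no gene of either list was called. The part of either list in the adaptor results was not tested. The 5 leukocyte markers summed to at most 3.41 CPM in every group except C4-2 titled NT (8.14 to 8.49 CPM), where LYZ had 8.40 and 8.03 CPM. With shCSN5, the leukocyte markers high enough to be tested were called higher in LNCaP (1 of 1), 22Rv1 (2 of 2) and PC3 (1 of 1), and their part in the adaptor results was not tested.

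Below, CPM values are scaled by TMM within a comparison, fold changes are log2 of the knockdown or inhibitor group over its control, and a gene is called when edgeR's quasi-likelihood test gave an adjusted p under 0.05 over all genes of that comparison. CPM values take no account of transcript length, so they serve to compare a gene between samples and not to rank genes.

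Some adaptor genes differed widely in level between lines in the scramble controls. KLHL5 averaged 238 CPM in PC3 scramble cells, against 15.5 CPM in LNCaP scramble cells of the same table, and it averaged 16.5 CPM in 22Rv1 and 10.8 CPM in C4-2 scramble cells of the other table. KCTD12, an auxiliary subunit of the GABA-B receptor, was also highest in PC3, with means of 40.3 CPM in PC3 and 0.151 CPM in LNCaP scramble cells, and of 3.86 CPM in 22Rv1 and 4.80 CPM in C4-2 scramble cells. KLHL4 was highest in PC3 as well, with 6.82 CPM in PC3 scramble cells and 0.033 to 0.462 CPM in those of the other lines. KLHL1, an actin-binding protein of neurons, was the opposite case: LNCaP scramble libraries had 31.3 and 28.2 CPM, and the PC3 libraries of the knockdown experiment had at most 0.0326 CPM. Levels of lines in different tables are set side by side only as a description.

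Knockdown of CSN5 changed adaptor transcripts in every line, in both directions. In LNCaP, 14 of the 50 members tested were called, 8 higher and 6 lower (background 35.7% of all genes tested, 18.3% higher and 17.4% lower). In C4-2, 17 of 52 were called, 9 higher and 8 lower (background 32%, 15.7% higher and 16.2% lower). In 22Rv1, 28 of 54 were called, 12 higher and 16 lower (background 43.9%, 22.6% higher and 21.3% lower), and in PC3, 8 of 55 were called, 6 higher and 2 lower (background 16.7%, 10.3% higher and 6.41% lower). The shares of members called lay near the share of all genes called, and the median log2 fold change of the tested members was 0.07, -0.05, -0.04 and -0.01 in LNCaP, C4-2, 22Rv1 and PC3, against -0.01, -0.02, 0.02 and 0.04 over all genes. Changes of at least 2-fold were called in 4 members in LNCaP (background 18.1%), 5 in C4-2 (background 11.2%), 5 in 22Rv1 (background 12%) and 4 in PC3 (background 5.93%). The shCSN5 and scramble libraries did not overlap for 34 of the 50 members tested in LNCaP (background 72.6%), 36 of 52 in C4-2 (background 66.1%), 40 of 54 in 22Rv1 (background 71.8%) and 30 of 55 in PC3 (background 62.1%), so separation of the groups is common among all genes.

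Single libraries moved these counts. For fits without 1 library, with a shared spread, with no filter or with a block, the share of all genes called was not counted. Whether these swings are particular to the members is therefore not known. In LNCaP, 37 and 36 members were called without shCSN5 replicate 1 and 2, against 2 and 3 without scramble replicate 1 and 2. In C4-2 the count was 11 and 10 without shCSN5 replicate 1 and 2, and 10 without scramble replicate 1. In PC3 it was 4 and 5 without shCSN5 replicate 1 and 2, and 14 without scramble replicate 1. With the spread shared by the lines, 23 members were called in LNCaP and 18 in PC3, 9 higher and 9 lower. With no filter on low counts, 10 were called in C4-2. With the replicate number as a block, 30 were called in PC3, 16 higher and 14 lower, although the labels do not say that these numbers pair libraries. In PC3 the split was 6 higher and 2 lower with TMM, 6 and 0 with scaling to total counts, and 4 and 4 with DESeq2. The median log2 fold change of all genes there was 0.04 with TMM, 0.11 with scaling to total counts and -0.01 with DESeq2.

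**Figure D1:**
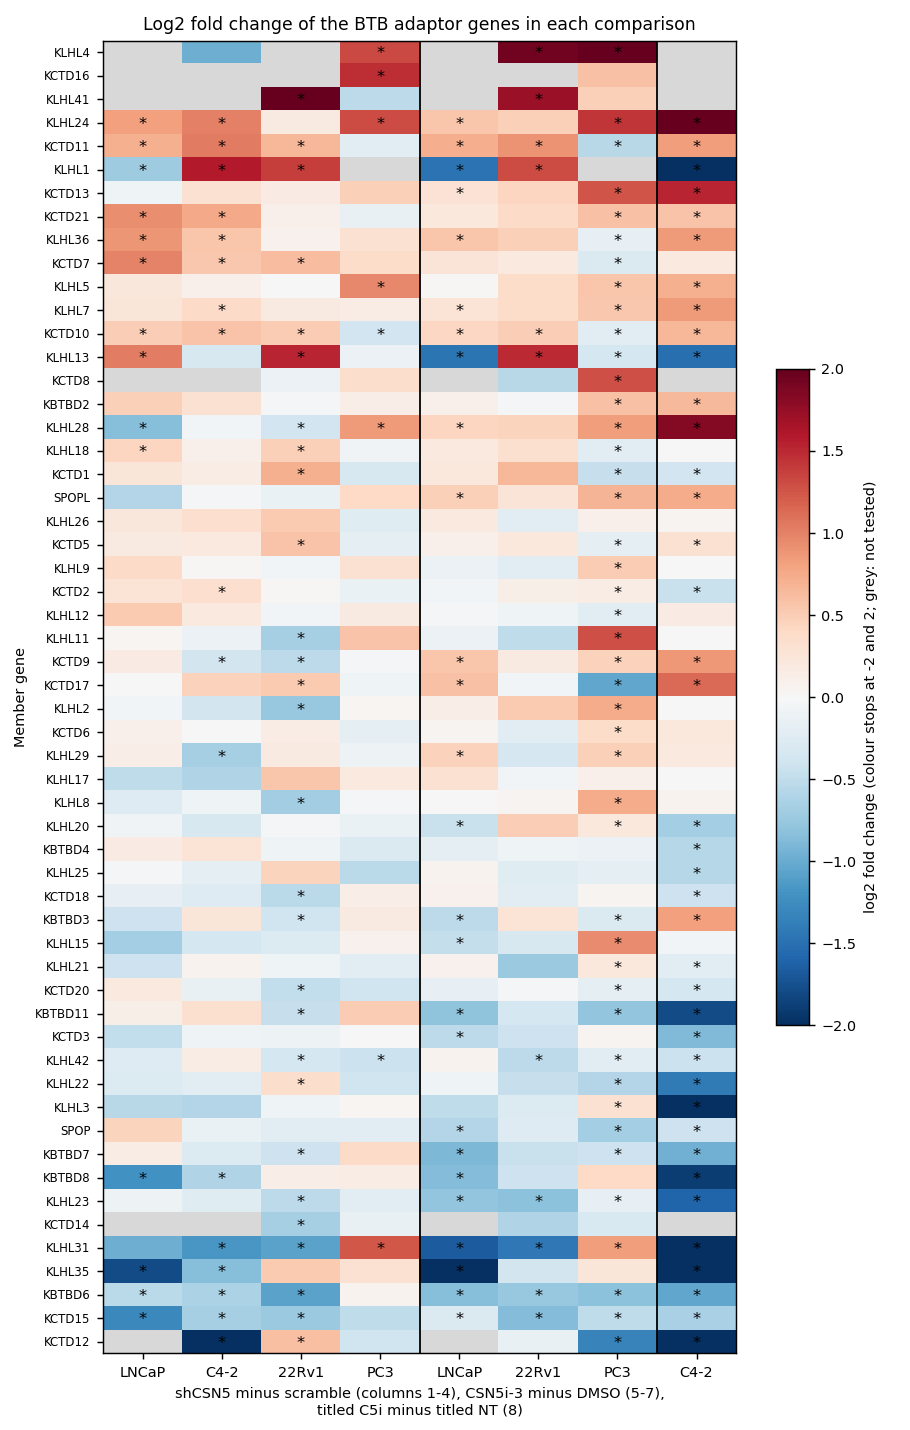
Log2 fold change of the adaptor genes (rows) in 4 knockdown comparisons (left columns), 3 inhibitor comparisons and the C4-2 comparison of titled C5i with titled NT (right column); the colour scale stops at ±2, grey marks genes not tested, and an asterisk marks an edgeR adjusted p under 0.05. KLHL24 is above 0 and KCTD15 below 0 in all 8 columns, while KLHL1 and KLHL13 hold both colours.

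Of the 49 members tested in all 4 knockdowns, KLHL24, KCTD11, KCTD10 and KCTD7 were called higher in at least 3 lines (background 7.28% of genes tested in all 4). KBTBD6 and KCTD15 were called lower in at least 3 lines (background 8.47%). Another 16 of these 49 members were called in none, a pattern whose share over all genes was not counted. In a fit of the average shCSN5 effect over the 4 lines, 12 of 56 members were called, 9 higher and 3 lower (background 34.2%, 19.5% higher and 14.7% lower). DESeq2 gave 10 higher and 8 lower in the same fit. KCTD15 fell by 0.79 ± 0.11 (edgeR adjusted p = 8.7e-05), KCTD7 rose by 0.64 ± 0.09 (0.00011) and KLHL24 rose by 0.84 ± 0.13 (0.00018). The average changes of KLHL36 (0.47 ± 0.09, adjusted p = 0.0014), KBTBD6 (-0.53 ± 0.12, 0.0035), KCTD11 (0.56 ± 0.14, 0.007) and KCTD10 (0.31 ± 0.12, 0.048) also passed. The KCTD10 average passed in 7 of 20 other settings.

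KLHL24 is an adaptor that acts on keratin 14 in skin, where start-codon variants cause fragility. Together with KCTD11 its promoter is shown for the AP-1 letters TGAGTCA, in capitals, and KBTBD6, which fell, is shown as a promoter without any of the searched motifs. The promoters of KCTD10 and KCTD7, also called higher in at least 3 lines, hold none of the searched motifs either. KCTD20, whose promoter holds the AP-1 letters, fell in 22Rv1 shCSN5 cells (-0.49 ± 0.08). KLHL21, whose promoter holds them too, was called in no knockdown. For KCTD15, also called lower in at least 3 lines, no promoter sequence was available. The sequences come from RefSeq (GRCh38.p14) and run from 250 bases before to 50 bases after the gene start, at chr3:183635373-183635672 (+) for KLHL24, chr17:7351912-7352211 (+) for KCTD11 and chr13:41132753-41133052 (-) for KBTBD6.
KLHL24: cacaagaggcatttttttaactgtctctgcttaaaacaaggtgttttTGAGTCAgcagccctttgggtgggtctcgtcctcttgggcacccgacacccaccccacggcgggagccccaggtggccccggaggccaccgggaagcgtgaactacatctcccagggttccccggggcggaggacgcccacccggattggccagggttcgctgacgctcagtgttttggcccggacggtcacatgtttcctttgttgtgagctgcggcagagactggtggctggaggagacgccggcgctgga
KCTD11: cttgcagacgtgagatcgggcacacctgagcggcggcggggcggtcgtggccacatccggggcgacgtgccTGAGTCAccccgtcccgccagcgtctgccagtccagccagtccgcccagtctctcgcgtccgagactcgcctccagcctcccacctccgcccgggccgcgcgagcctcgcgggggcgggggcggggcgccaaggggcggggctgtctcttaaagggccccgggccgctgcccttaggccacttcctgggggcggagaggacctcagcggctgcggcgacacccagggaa
KBTBD6: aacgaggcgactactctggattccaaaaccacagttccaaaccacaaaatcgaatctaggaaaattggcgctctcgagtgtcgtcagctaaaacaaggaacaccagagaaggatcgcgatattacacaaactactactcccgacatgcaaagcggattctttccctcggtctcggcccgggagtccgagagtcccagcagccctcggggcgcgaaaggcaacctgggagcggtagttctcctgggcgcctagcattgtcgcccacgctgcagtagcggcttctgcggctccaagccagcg
The AP-1 letters TGACTCA, read on both strands, occurred in 4 of the 46 member promoters in the table (8.70%: KCTD11, KCTD20, KLHL21 and KLHL24), against 4.95% of 35116 promoters. The cAMP response element TGACGTCA occurred in 4.35% of member promoters, against 1.85% of all, and the E-box CACGTG in 2.17%, against 7.26%. The E2F letters TTTGGCGC occurred in 2.17%, against 0.652%, and the ATF4 composite letters TGATGCAA in 2.17%, against 0.866%. The median GC content of member promoters was 66.8%, against 58.7% for all. These matches describe letters in a window and not bound sites.

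In C4-2, KLHL24 had 35.9 and 37.8 CPM in shCSN5 cells, against 19.5 and 17.2 CPM in scramble cells, a log2 fold change of 1.01 ± 0.13 (edgeR adjusted p = 0.0012). In PC3, it had 48.0 and 42.7 CPM in shCSN5 cells, against 19.8 and 17 CPM in scramble cells (1.30 ± 0.14, adjusted p = 0.0083). In LNCaP, shCSN5 cells had 18.8 and 16.1 CPM, against 10.1 and 9.78 CPM in scramble cells (0.82 ± 0.17, 0.013). The shCSN5 libraries were higher than the scramble libraries without overlap in these 3 lines. In 22Rv1 the values were 57.9 and 59.8 CPM in shCSN5 cells, against 49.1 and 55.3 CPM in scramble cells (0.17 ± 0.09, adjusted p = 0.16), so the gene was not called there.

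KCTD11 belongs to the KCASH adaptors, which bring HDAC1 to CUL3 and restrain Hedgehog signalling. Its level in C4-2 was 21.6 and 21.5 CPM in shCSN5 cells, against 10.4 and 10.6 CPM in scramble cells (1.04 ± 0.13, edgeR adjusted p = 0.0012). In LNCaP it was 24 and 26.3 CPM in shCSN5 cells, against 15.7 and 15.1 CPM in scramble cells (0.71 ± 0.15, 0.015). In 22Rv1 it was 17 and 17.7 CPM in shCSN5 cells, against 10.4 and 11.4 CPM in scramble cells (0.67 ± 0.13, 0.0018). In each of these lines both shCSN5 libraries lay above both scramble libraries. PC3 was the exception, with 9.67 and 11.5 CPM in shCSN5 cells, against 11.8 and 13.1 CPM in scramble cells (-0.23 ± 0.16, 0.36). KCTD21, another KCASH adaptor, had 62.5 and 58.4 CPM in LNCaP shCSN5 cells, against 31.9 and 31.7 CPM in scramble cells (0.92 ± 0.14, 0.005), and rose in C4-2 by 0.75 ± 0.12 (0.0036). KLHL36 also rose in these related lines, by 0.88 ± 0.13 in LNCaP (0.0044) and by 0.55 ± 0.11 in C4-2 (0.0071).

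KCTD10, one of the BACURD adaptors that target the GTPase RHOA, changed in all 4 lines. LNCaP shCSN5 cells had 125 and 117 CPM, against 86.7 and 84.7 CPM in scramble cells (0.49 ± 0.12, edgeR adjusted p = 0.026). C4-2 shCSN5 cells had 71.8 and 70.4 CPM, against 49.5 and 46.6 CPM in scramble cells (0.56 ± 0.10, 0.0054), and 22Rv1 shCSN5 cells had 135 and 130 CPM, against 87.7 and 97.4 CPM in scramble cells (0.52 ± 0.08, 0.00049). PC3 went the other way without overlap, with 87.5 and 86.2 CPM in shCSN5 cells, against 110 and 116 CPM in scramble cells (-0.38 ± 0.09, 0.047). That PC3 call was lost with total-count scaling and without either shCSN5 library. The C4-2 call was lost without shCSN5 replicate 2.

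KCTD7, in which variants cause a progressive myoclonic epilepsy, had 21.7 and 19.5 CPM in LNCaP shCSN5 cells, against 9.999 and 10.6 CPM in scramble cells (0.99 ± 0.16, edgeR adjusted p = 0.006). In 22Rv1 it had 23.9 and 24.8 CPM in shCSN5 cells, against 16.1 and 15.8 CPM in scramble cells (0.61 ± 0.12, 0.0015), and in C4-2 13.2 and 12 CPM in shCSN5 cells, against 8.69 and 8.67 CPM in scramble cells (0.53 ± 0.14, 0.026). PC3 libraries did not overlap either, with 30.8 and 29.6 CPM in shCSN5 cells, against 23.2 and 23.5 CPM in scramble cells, yet the gene was not called (0.37 ± 0.12, 0.087). The C4-2 call passed in 2 of 9 other settings.

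KCTD15 is an inhibitor of the transcription factor AP-2 in the neural crest of zebrafish. It had 20.1 and 25 CPM in LNCaP shCSN5 cells, against 55.6 and 55.0 CPM in scramble cells (-1.30 ± 0.17, edgeR adjusted p = 0.0028). In C4-2 it had 24.6 and 23.5 CPM in shCSN5 cells, against 36.1 and 40.7 CPM in scramble cells (-0.67 ± 0.13, 0.0064), and in 22Rv1 19.5 and 16 CPM in shCSN5 cells, against 32.0 and 27.1 CPM in scramble cells (-0.74 ± 0.14, 0.0013). All shCSN5 libraries of these lines were below their scramble libraries. In PC3 it had 31.4 and 36.7 CPM in shCSN5 cells, against 43.0 and 53.9 CPM in scramble cells (-0.51 ± 0.16, 0.082), also without overlap but not called.

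KBTBD6 works with KBTBD7 on the Rac activator TIAM1. It showed its largest knockdown change in 22Rv1, with 32.4 and 32.7 CPM in shCSN5 cells, against 64.9 and 71.2 CPM in scramble cells (-1.07 ± 0.09, edgeR adjusted p = 6.8e-06). C4-2 had 31.9 and 34.5 CPM in shCSN5 cells, against 54.3 and 48.7 CPM in scramble cells (-0.63 ± 0.12, 0.0064), and LNCaP had 26 and 21.8 CPM in shCSN5 cells, against 35.9 and 33.2 CPM in scramble cells (-0.53 ± 0.16, 0.048). The groups did not overlap in these lines. In PC3 they did, with 23 and 20.9 CPM in shCSN5 cells, against 22.4 and 19.5 CPM in scramble cells (0.06 ± 0.14, 0.79). The C4-2 call was lost without shCSN5 replicate 1 (adjusted p = 0.059). KBTBD7 was called in 22Rv1 alone among the knockdowns (-0.41).

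**Figure D2:**
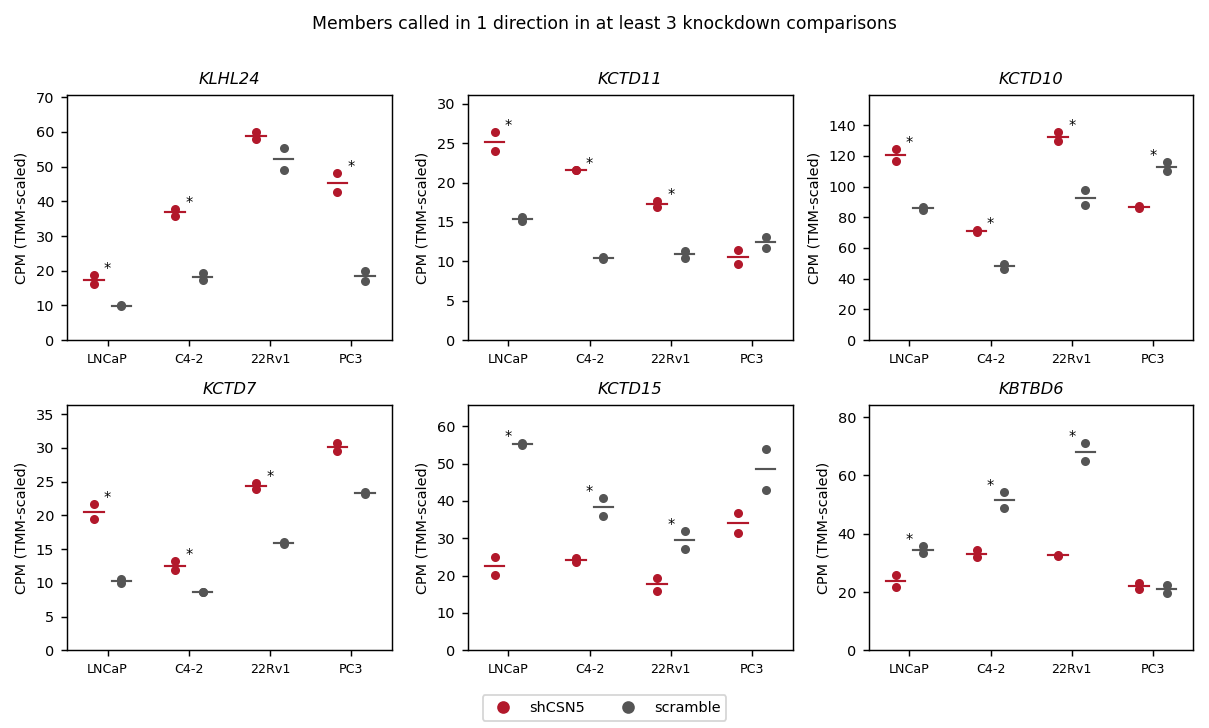
CPM (TMM-scaled within a comparison) in each library of the 4 knockdown comparisons for members called in the same direction in at least 3 lines; dots are libraries, horizontal lines are group means, and an asterisk marks an edgeR adjusted p under 0.05. KBTBD6 lies at about the same level in both PC3 groups, and KCTD10 lies lower in PC3 shCSN5 cells (87.5 and 86.2 CPM) than in PC3 scramble cells (110 and 116 CPM).

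All calls in LNCaP described here for KLHL24, KCTD11, KCTD10, KCTD7, KCTD21, KLHL36, KBTBD6, KLHL13, KLHL28 and KLHL1 were lost without either scramble library, and those of KCTD15 and KLHL35 were kept. The chi-square between LNCaP shCSN5 libraries was 71.3 per gene, the highest of the 16 groups, against 1.72 in PC3 DMSO, the lowest.

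The knockdown change differed between lines for 32 of the 56 members (edgeR test of the difference, background 38.8%). LNCaP and PC3 share a table, as do 22Rv1 and C4-2, so between tables line and table cannot be told apart. KCTD10, KLHL28 and KLHL31 were called higher in 1 line and lower in another among the 49 members tested in all 4 (background 5.95%). KCTD12 and KLHL1, not tested in every line, did so too.

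KCTD12 had 0.85 and 1.12 CPM in C4-2 shCSN5 cells, against 4.75 and 4.86 CPM in scramble cells (-2.28 ± 0.21, edgeR adjusted p = 0.00028). In 22Rv1 it had 5.61 and 6.02 CPM in shCSN5 cells, against 4.05 and 3.66 CPM in scramble cells (0.59 ± 0.16, 0.013). The libraries of these lines, which share a table, thus separated in opposite directions. The 22Rv1 call was lost with DESeq2, without scramble replicate 2 and without shCSN5 replicate 2. In PC3 the gene had 31.4 and 29.6 CPM in shCSN5 cells, against 43.2 and 37.5 CPM in scramble cells (-0.40 ± 0.13, 0.085). In LNCaP, where it was too low to be tested, shCSN5 cells had 1 count and scramble cells 9 counts over the group, a ratio of 0.118 (95% counting interval 0.00269 to 0.851, counting error only).

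KLHL1 had 22.6 and 21.6 CPM in C4-2 shCSN5 cells, against 7.61 and 7.08 CPM in scramble cells (1.59 ± 0.14, edgeR adjusted p = 0.00024), and 4.57 and 4.79 CPM in 22Rv1 shCSN5 cells, against 1.46 and 2.11 CPM in scramble cells (1.38 ± 0.21, 0.00036). In LNCaP it had 20.8 and 15.5 CPM in shCSN5 cells, against 31.3 and 28.2 CPM in scramble cells (-0.72 ± 0.19, 0.032). The groups did not overlap in any of the lines where KLHL1 was tested. Its exons overlap the antisense gene ATXN8OS, whose reads cannot be told apart without the strand.

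KLHL28 had 10.1 and 7.56 CPM in LNCaP shCSN5 cells, against 16 and 15.9 CPM in scramble cells (-0.85 ± 0.19, edgeR adjusted p = 0.019). In PC3 it had 27.5 and 24.2 CPM in shCSN5 cells, against 15.8 and 12.9 CPM in scramble cells (0.85 ± 0.16, 0.026). These lines share a table, and the groups separated in opposite directions. It was called lower in 22Rv1 (-0.38 ± 0.11, 0.014) and not called in C4-2 (-0.06, 0.77). The PC3 call was lost without shCSN5 replicate 1, and the 22Rv1 call without shCSN5 replicate 1 and with a shared spread.

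KLHL31, known from mouse muscle, was measured at low counts. C4-2 shCSN5 cells had 1.47 and 1.43 CPM, against 4.02 and 2.47 CPM in scramble cells (-1.17 ± 0.27, edgeR adjusted p = 0.015), and 22Rv1 shCSN5 cells had 1.51 and 1.19 CPM, against 2.34 and 3.32 CPM in scramble cells (-1.07 ± 0.25, 0.0056). PC3 shCSN5 cells had 1.09 and 1.24 CPM, against 0.487 and 0.489 CPM in scramble cells (1.24 ± 0.26, 0.032). The groups were apart in each line, lower with shCSN5 in C4-2 and 22Rv1 and higher in PC3. Each of these calls was lost in at least 1 other setting: in PC3 with DESeq2 and without either shCSN5 library, in 22Rv1 with DESeq2 and without scramble replicate 2, and in C4-2 with no filter on low counts and without scramble replicate 1.

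**Figure D3:**
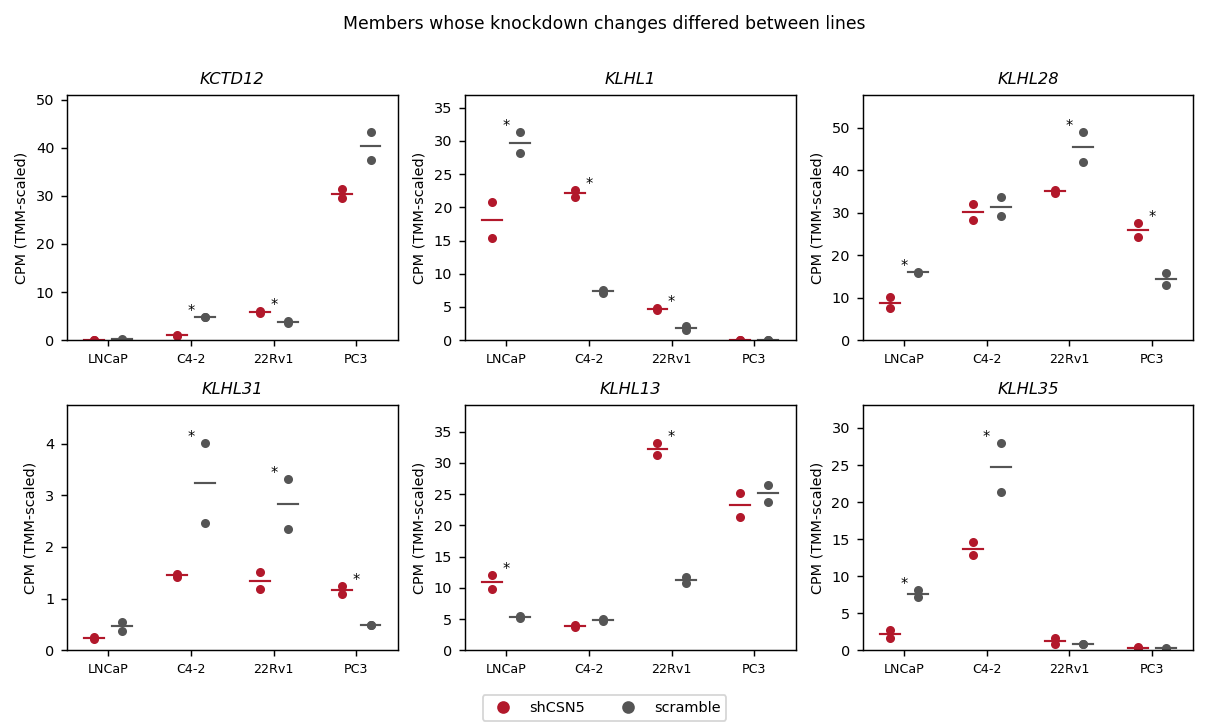
CPM (TMM-scaled within a comparison) in each library of the 4 knockdown comparisons for members whose knockdown change differed between lines. Dots are libraries, horizontal lines are group means, and an asterisk marks an edgeR adjusted p under 0.05. KCTD12, KLHL1, KLHL28 and KLHL31 were called higher in 1 line and lower in another. KLHL13 was called only higher and KLHL35 only lower. KLHL1 is higher in shCSN5 cells of C4-2 (22.6 and 21.6 CPM, against 7.61 and 7.08 CPM in scramble cells) and lower in those of LNCaP (20.8 and 15.5 CPM, against 31.3 and 28.2 CPM in scramble cells).

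Other members changed in 1 line or a pair of lines. KLHL13, which acts with KLHL9 on the mitotic kinase Aurora B, had 33.3 and 31.3 CPM in 22Rv1 shCSN5 cells, against 10.8 and 11.7 CPM in scramble cells (1.52 ± 0.12, edgeR adjusted p = 3.2e-06), and rose in LNCaP by 1.03 ± 0.19 (0.0093). KLHL35 had 1.65 and 2.76 CPM in LNCaP shCSN5 cells, against 8.08 and 7.17 CPM in scramble cells (-1.79 ± 0.27, 0.0049), and fell in C4-2 (-0.85 ± 0.17, 0.0083), a call lost without scramble replicate 2. In PC3, KLHL5 had 483 and 442 CPM in shCSN5 cells, against 252 and 224 CPM in scramble cells (0.96 ± 0.11, 0.0085). Also in PC3, KLHL4 had 17.2 and 17.1 CPM in shCSN5 cells, against 7.44 and 6.20 CPM in scramble cells (1.33 ± 0.16, 0.01). Both kelch genes were higher without overlap in shCSN5 cells of that line.

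In 22Rv1, KLHL2, an adaptor for the WNK kinases that control ion transport, fell by 0.76 ± 0.13 (edgeR adjusted p = 0.00068), KLHL8 fell by 0.70 ± 0.09 (0.00011), KCTD20 fell by 0.49 ± 0.08 (0.00049) and KCTD9 fell by 0.52 ± 0.09 (0.00054). KCTD1, an AP-2 repressor, rose by 0.71 ± 0.12 (0.00077), and KLHL18 rose by 0.48 ± 0.08 (0.00079) in the same line. KLHL29 fell by 0.67 ± 0.16 in C4-2 (0.017), and KLHL42, an adaptor for the microtubule-severing enzyme katanin, fell by 0.44 ± 0.11 in PC3 (0.048). These last 2 calls were each lost in 4 other settings. Read by role, the 3 KCASH adaptors had 2 called higher in LNCaP (background 18.3%), 2 in C4-2 (background 15.7%) and 1 in 22Rv1 (background 22.6%), with none called in PC3, which is a count over few genes with no test. The WNK adaptors KLHL2 and KLHL3 had 1 member called lower, in 22Rv1, and the SPOP pair, and KLHL12 with KLHL20, adaptors of the secretory pathway and of Wnt signalling, had none called in any knockdown.

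The inhibitor experiment called more members in LNCaP and PC3 than the knockdown did. In LNCaP, 26 of 50 members tested were called with CSN5i-3, 11 higher and 15 lower (background 52.6%, 26.2% higher and 26.5% lower). In 22Rv1, 11 of 55 were called, 6 higher and 5 lower (background 24%, 11.8% higher and 12.2% lower), and in PC3, 44 of 55 were called, 23 higher and 21 lower (background 77.1%, 38.5% higher and 38.5% lower). The medians of the tested members were 0.04, -0.06 and 0.10, against 0.00, -0.04 and -0.01 over all genes, and the shares called again lay near the background. CSN5i-3 and DMSO libraries did not overlap for 37 of 50 members in LNCaP (background 77.5%), 37 of 55 in 22Rv1 (background 63.5%) and 54 of 55 in PC3 (background 87.3%). The 22Rv1 count was 17 without CSN5i-3 replicate 1, and 5 and 4 without DMSO replicate 1 and 2. With the spread shared by the lines it was 24 in 22Rv1 and 29 in PC3. In a fit of the average CSN5i-3 effect over these 3 lines, 16 of 52 members were called, 10 higher and 6 lower (background 30.5%, 15.4% higher and 15% lower).

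The opposite changes of SPOP and SPOPL were seen with the inhibitor and not called with the knockdown. SPOP brings substrates such as BRD proteins to CUL3, and SPOPL forms mixed assemblies with it that are less active. In PC3, SPOP had 52.2 and 50.9 CPM in CSN5i-3 cells, against 82.7 and 83.0 CPM in DMSO cells (-0.68 ± 0.04, edgeR adjusted p = 1.4e-24), and SPOPL had 34.3 and 32.9 CPM in CSN5i-3 cells, against 21.6 and 20.7 CPM in DMSO cells (0.67 ± 0.05, 1.7e-17). In LNCaP, SPOP had 41.0 and 42 CPM in CSN5i-3 cells, against 66.4 and 58.4 CPM in DMSO cells (-0.59 ± 0.09, 0.0012), and SPOPL had 31.3 and 31.5 CPM in CSN5i-3 cells, against 24.2 and 21.1 CPM in DMSO cells (0.47 ± 0.09, 0.0044). SPOP libraries were below and SPOPL libraries above their controls in both lines. In 22Rv1, neither was called, with log2 fold changes of -0.26 ± 0.16 for SPOP (0.27) and 0.26 ± 0.20 for SPOPL (0.39).

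The average CSN5i-3 effect was -0.49 ± 0.09 for SPOP (edgeR adjusted p = 0.0024) and 0.48 ± 0.11 for SPOPL (0.0053). With shCSN5 the pair was called in no line. SPOP had 97.8 and 80.0 CPM in LNCaP shCSN5 cells, against 64.8 and 66.2 CPM in scramble cells (0.44 ± 0.15, 0.065), and SPOPL had 14.8 and 11 CPM, against 19.4 and 19.5 CPM in scramble cells (-0.59 ± 0.19, 0.057). In PC3, SPOP had 94.5 and 91.3 CPM in shCSN5 cells, against 110.8 and 106 CPM in scramble cells (-0.22 ± 0.09, 0.15), and SPOPL had 55.1 and 53.9 CPM in shCSN5 cells, against 45.5 and 37.4 CPM in scramble cells (0.39 ± 0.13, 0.097). The PC3 values thus had the same signs as with CSN5i-3, and the LNCaP values the opposite signs. The log2 fold changes were -0.13 for SPOP and -0.04 for SPOPL in C4-2, and -0.23 for SPOP and -0.13 for SPOPL in 22Rv1. The inhibitor effect minus the knockdown effect in LNCaP was -1.12 ± 0.18 for SPOP (0.0042) and 0.97 ± 0.22 for SPOPL (0.017), and in PC3 it was -0.39 ± 0.10 for SPOP (0.014). In both lines SPOP thus lay lower with the inhibitor than with the knockdown, relative to each experiment's own control. SPOPL shares an exon stretch with AC092620.2 on its own strand, so reads there cannot be assigned to either.

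**Figure D4:**
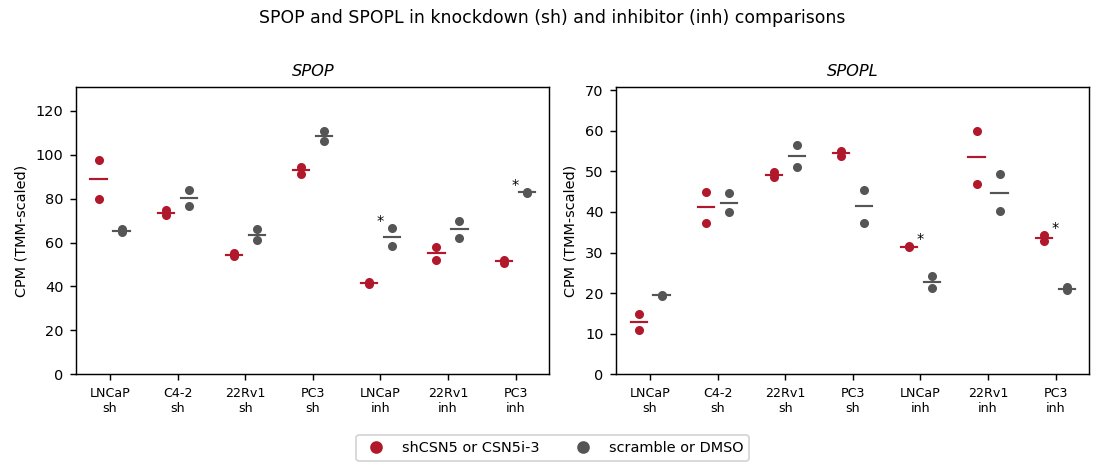
CPM (TMM-scaled within a comparison) of SPOP and SPOPL in each library of the knockdown and inhibitor comparisons; dots are libraries, horizontal lines are group means, and an asterisk marks an edgeR adjusted p under 0.05. SPOP is lower and SPOPL higher in CSN5i-3 than in DMSO cells of LNCaP and PC3, and neither is called in a knockdown.

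KBTBD6 and KCTD15 were called lower in all 3 inhibitor comparisons, which makes 6 of the 7 comparisons of labelled treatments. How many of all genes were called lower as often was not counted. KBTBD6 had 16 and 19.1 CPM in LNCaP CSN5i-3 cells, against 32.6 and 31.0 CPM in DMSO cells (-0.86 ± 0.10, edgeR adjusted p = 0.00048), and 37.4 and 40.7 CPM in 22Rv1 CSN5i-3 cells, against 66.7 and 65.2 CPM in DMSO cells (-0.75 ± 0.15, 0.016). In PC3 it had 6.38 and 7.20 CPM in CSN5i-3 cells, against 11.7 and 12.3 CPM in DMSO cells (-0.83 ± 0.09, 6e-13), whereas the knockdown left it uncalled there, and the inhibitor effect minus the knockdown effect was -0.81 ± 0.16 (0.0056). KCTD15 changed by -0.29 ± 0.08 in LNCaP (0.021), -0.87 ± 0.23 in 22Rv1 (0.038) and -0.50 ± 0.04 in PC3 (1.4e-16). KBTBD7 had 17.3 and 17.4 CPM in LNCaP CSN5i-3 cells, against 32.0 and 32.3 CPM in DMSO cells (-0.89 ± 0.08, 9.8e-05), so both TIAM1 adaptors were lower there.

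KLHL24 had 79.8 and 78.8 CPM in PC3 CSN5i-3 cells, against 28.8 and 29.9 CPM in DMSO cells (1.44 ± 0.04, edgeR adjusted p = 1.1e-37). It had 24.3 and 25.3 CPM in LNCaP CSN5i-3 cells, against 17.6 and 16.1 CPM in DMSO cells (0.56 ± 0.09, 0.0017), and was not called in 22Rv1 (0.48 ± 0.21, 0.15). KCTD11 and KCTD10 kept the line pattern seen with shCSN5. KCTD11 rose in LNCaP (0.73 ± 0.10, 0.001) and 22Rv1 (0.90 ± 0.20, 0.022) and fell in PC3, with 15.8 and 18.1 CPM in CSN5i-3 cells, against 25.2 and 24.2 CPM in DMSO cells (-0.55 ± 0.06, 7.1e-12). KCTD10 rose in LNCaP (0.41 ± 0.07, 0.0027) and 22Rv1 (0.50 ± 0.13, 0.036) and fell in PC3 (-0.22 ± 0.03, 1.4e-08). KCTD7, higher in 3 knockdowns, was not called higher with the inhibitor. Its log2 fold change was 0.26 ± 0.10 in LNCaP (0.06) and 0.20 ± 0.17 in 22Rv1 (0.44), it fell in PC3 (-0.28 ± 0.05, 3.1e-06), and its average CSN5i-3 effect was 0.08 ± 0.11 (0.65). The inhibitor effect minus the knockdown effect of KCTD7 was -0.82 ± 0.18 in LNCaP (0.013) and -0.58 ± 0.11 in PC3 (0.0037).

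Further large inhibitor changes were in PC3. KCTD13, another BACURD adaptor, had 37.0 and 36.8 CPM in CSN5i-3 cells, against 15.2 and 15.7 CPM in DMSO cells (1.26 ± 0.05, edgeR adjusted p = 6.3e-29). KLHL4 had 18.5 and 20.1 CPM in CSN5i-3 cells, against 4.81 and 4.47 CPM in DMSO cells (2.05 ± 0.08, 2.8e-30). KCTD12 had 10.2 and 9.30 CPM in CSN5i-3 cells, against 25.5 and 23.8 CPM in DMSO cells (-1.34 ± 0.07, 9.8e-26). KCTD17, which directs a ciliary protein, trichoplein, to degradation, fell by 1.03 ± 0.06 (1.2e-21), with no overlap between its libraries. In LNCaP, KLHL35 had 2.09 and 1.87 CPM in CSN5i-3 cells, against 10.4 and 14 CPM in DMSO cells (-2.62 ± 0.18, 3.3e-05), and KLHL1 had 15.4 and 15.8 CPM in CSN5i-3 cells, against 45.2 and 41.6 CPM in DMSO cells (-1.47 ± 0.08, 1.3e-05). KCTD12, too low to be tested in that comparison, had 0 counts over the LNCaP CSN5i-3 group and 21 counts in DMSO cells. Set against a floor of 3 counts over the group this is 7.47-fold lower, with no allowance for the counting error of the 21 counts. In 22Rv1, KLHL23 fell by 0.82 ± 0.20 (0.031), KLHL42 fell by 0.53 ± 0.14 (0.041) and KLHL1 rose by 1.30 ± 0.24 (0.012). The 22Rv1 inhibitor calls of KBTBD6, KCTD10, KCTD11, KCTD15, KLHL23 and KLHL42 were lost in at least 1 fit without 1 library, and that of KLHL13 was kept in all settings.

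Set beside each other within a line, 11 of 50 members were called in both experiments in LNCaP, 9 of them in the same direction. In 22Rv1, 10 of 54 members were called in both, and in PC3 7 of 55, all in the same direction. Over all genes tested in both experiments, 3645 of 14367 were called in both in LNCaP, 2895 of 15713 in 22Rv1 and 2116 of 15030 in PC3. Over all genes called in both experiments the share with the same direction was 90.1% in LNCaP, 98.2% in 22Rv1 and 78.9% in PC3. Across members the log2 fold changes of the experiments correlated with Pearson's r of 0.51 in LNCaP (50 members), 0.70 in 22Rv1 (54 members) and 0.59 in PC3 (55 members), against 0.68, 0.75 and 0.28 across all genes; genes of a library share its depth and are not independent replicates. KLHL13 and KLHL28 were the LNCaP members called in opposite directions. KLHL13 had 12 and 9.75 CPM in LNCaP shCSN5 cells, against 5.56 and 5.11 CPM in scramble cells, and 1.83 and 1.56 CPM in CSN5i-3 cells, against 4.68 and 4.65 CPM in DMSO cells (-1.46 ± 0.16, edgeR adjusted p = 0.00027). In 22Rv1 it was higher in both experiments, with 19.3 and 22.4 CPM in CSN5i-3 cells, against 7.45 and 7.42 CPM in DMSO cells (1.49 ± 0.19, 0.0032). KLHL28 had 26.5 and 27.0 CPM in LNCaP CSN5i-3 cells, against 20.5 and 19.2 CPM in DMSO cells (0.43 ± 0.08, 0.004), the reverse of its knockdown change.

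**Figure D5:**
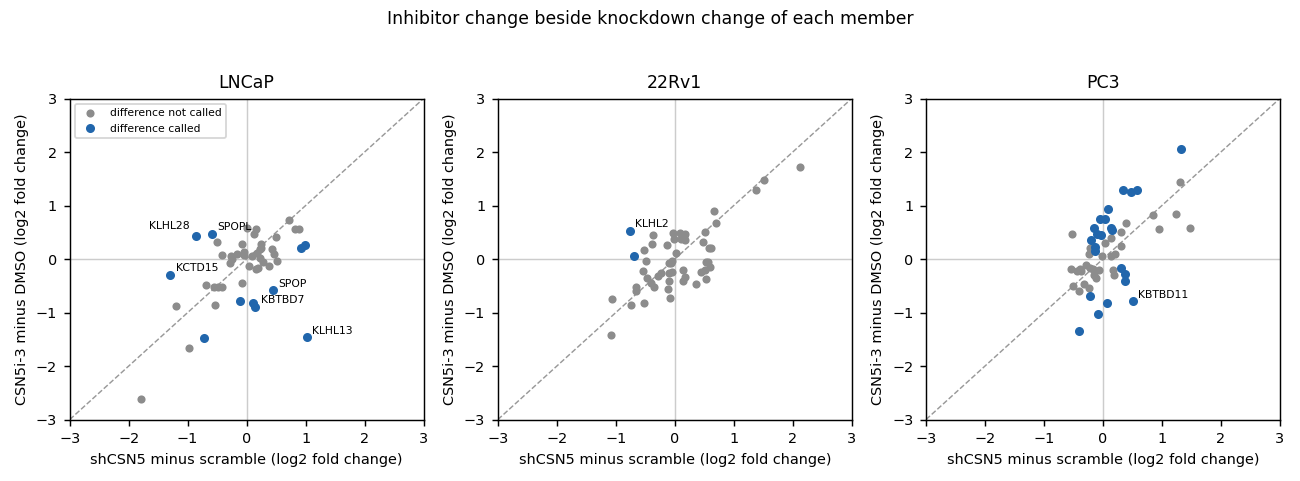
Log2 fold change of each member with CSN5i-3 over DMSO, against its log2 fold change with shCSN5 over scramble, in LNCaP, 22Rv1 and PC3; each point is a gene, blue where edgeR called the difference between the experiments and grey otherwise, and the dashed line marks equal changes. KLHL13 lies at opposite signs in LNCaP (1.03 with shCSN5 and -1.46 with CSN5i-3) and at the same sign in 22Rv1 (1.52 and 1.49).

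The inhibitor effect minus the knockdown effect passed its test for 11 of 50 members in LNCaP, 3 higher and 8 lower (background 21.3%, 6.83% higher and 14.5% lower), for 2 of 55 in 22Rv1, both higher (background 4.28%, 2.38% higher and 1.9% lower), and for 23 of 55 in PC3, 15 higher and 8 lower (background 39.1%, 20.5% higher and 18.6% lower). KLHL13 had the largest value in LNCaP (-2.58 ± 0.24, edgeR adjusted p = 0.0004), and KLHL28 differed by 1.19 ± 0.21 (0.006). In 22Rv1 the called members were KLHL2 (1.31 ± 0.24, edgeR adjusted p = 0.029) and KLHL8 (0.77 ± 0.17, 0.047), named after their values were seen. An unadjusted p under 0.05 was found for 10 members, with no count over all genes to set beside it. In PC3, KCTD12 differed by -0.86 ± 0.15 (0.0032). Here the LNCaP count was 4 and 7 without CSN5i-3 replicate 1 and 2, 20 and 24 without shCSN5 replicate 1 and 2, and 4 and 7 without scramble replicate 1 and 2. The 22Rv1 count ran from 0 to 5 over the fits without 1 library. The PC3 count was 10 and 11 without CSN5i-3 replicate 1 and 2, 10 and 11 without DMSO replicate 1 and 2, and 14 without shCSN5 replicate 2, and with total-count scaling its split was 6 higher and 11 lower.

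In the C4-2 inhibitor experiment, 39 of 51 members tested differed between the pair titled C5i and the pair titled NT, 15 higher and 24 lower in titled C5i (background 74.9%, 37% higher and 37.9% lower). Because the labels conflict, the direction relative to the drug is not given. KLHL24 had 48.5 and 48.5 CPM in titled C5i, against 7.48 and 8.63 CPM in titled NT (2.59 ± 0.11, edgeR adjusted p = 2.7e-09). KLHL35 had 6.41 and 6.76 CPM in titled C5i, against 60.3 and 48.1 CPM in titled NT (-3.04 ± 0.13, 4.2e-09). KLHL28 had 28.5 and 26.2 CPM in titled C5i, against 7.66 and 7.63 CPM in titled NT (1.84 ± 0.11, 4.4e-08). Each of these genes separated the pairs without overlap, as did 43 of the 51 members (background 87.5%). SPOP was lower (-0.42 ± 0.08, 0.00084) and SPOPL higher (0.74 ± 0.10, 4.2e-05) in titled C5i. KCTD12 had 2 counts in titled C5i and 150 in titled NT, a ratio of 0.0143 (95% counting interval 0.00171 to 0.0525). KLHL1 had 2 counts in titled C5i and 207 in titled NT, a ratio of 0.0103 (0.00124 to 0.0378). The luminal markers summed to 978 to 998 CPM in titled C5i, against 4754 to 4759 CPM in titled NT. Of these 6 markers, 5 were called lower and 1, TMPRSS2, higher (0.87 ± 0.07) in titled C5i. The part of the luminal markers in the adaptor values was not tested.

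Of the 49 members tested in all 7 comparisons of labelled treatments, 12 were called only higher (background 32.9% of genes tested in all 7), 14 only lower (background 31.1%), 19 in both directions in different comparisons (background 31.9%) and 4 never (background 4.07%). Over all 56 members these counts were 16, 15, 21 and 4. Few tested members passed the low-count filter through 1 group alone: 2, 1, 1 and 2 in the knockdowns of LNCaP, C4-2, 22Rv1 and PC3, and 1, 2 and 1 with the inhibitor in LNCaP, 22Rv1 and PC3. Of these, 1 was called in the 22Rv1 knockdown, 1 with the inhibitor in LNCaP and 2 with the inhibitor in 22Rv1, and such members had to differ to be tested. In the C4-2 titled pairs there were 4, all called.

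Other genes of the CUL3 machinery were read as lists beside the members, with no test between lists. CUL3 itself was called higher in LNCaP shCSN5 cells, with 94.0 and 73.5 CPM, against 57.1 and 57.3 CPM in scramble cells (0.55 ± 0.16, edgeR adjusted p = 0.043), and lower in PC3 CSN5i-3 cells (-0.21 ± 0.04, 3.3e-07). Of 16 genes of the CUL3 core and the NEDD8 cycle, 5 of 15 tested rose and none fell in the LNCaP knockdown (background 18.3% higher and 17.4% lower). The counts were the same in C4-2 (background 15.7% and 16.2%). In 22Rv1, 3 of 16 rose and 2 fell (background 22.6% and 21.3%). In PC3 none of 16 rose and 1, RBX1, fell (background 10.3% and 6.41%), with a log2 fold change of -0.51 ± 0.12 (0.046). UBE2F, a NEDD8-conjugating enzyme, rose in LNCaP shCSN5 cells by 0.90 ± 0.17 (0.01). Of 20 BTB adaptors of other families, 6 rose and 2 fell in LNCaP, 6 rose and 4 fell in C4-2 and 7 rose and 4 fell in 22Rv1 with shCSN5. In PC3, 1 of 19 tested rose. The background of each line is the one just given for its knockdown. With CSN5i-3, the CUL3 core and NEDD8 genes had 8 higher and 3 lower of 16 tested in LNCaP (background 26.2% higher and 26.5% lower). None of 16 was called in 22Rv1 (background 11.8% and 12.2%), and 6 were higher and 8 lower of 16 in PC3 (background 38.5% and 38.5%). Against these same backgrounds, the BTB adaptors of other families had 9 higher and 4 lower of 20 in LNCaP. They had 4 higher and 1 lower of 20 in 22Rv1, and 8 higher and 8 lower of 19 in PC3.

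Of 39 reported substrates of the adaptors, 34 were tested in the LNCaP knockdown, where 3 rose and 10 fell (background 18.3% higher and 17.4% lower). In C4-2, 5 rose and 7 fell of 34 tested (background 15.7% and 16.2%). In 22Rv1, 11 rose and 15 fell of 34 (background 22.6% and 21.3%), and in PC3, 2 rose and 5 fell of 33 (background 10.3% and 6.41%). With the inhibitor, 10 rose and 16 fell of 34 tested in LNCaP (background 26.2% higher and 26.5% lower). In 22Rv1, 3 rose and 11 fell of 35 (background 11.8% and 12.2%), and in PC3, 20 rose and 10 fell of 33 (background 38.5% and 38.5%). PPP2R5B, a phosphatase subunit that KLHL15 brings to CUL3, rose by 0.92 in LNCaP, 0.86 in C4-2 and 1.09 in 22Rv1 shCSN5 cells. The mitotic kinase PLK1, a substrate of KLHL22, fell by 4.45 in LNCaP and by 1.68 in C4-2 shCSN5 cells, and by 5.56 in LNCaP CSN5i-3 cells. These are transcript values and do not measure the substrate proteins.

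In GENCODE release 29, 21 of the 56 members share exon sequence with another gene, 6 of them with one on the same strand. The strand counted is not given, so reads of KCTD10 and UBE3B, KCTD11 and AC026954.3, KCTD21 and KCTD21-AS1 or USP35, and KLHL28 and TOGARAM1 cannot be told apart where they overlap on opposite strands. KCTD7 overlaps AC027644.4 and KLHL23 overlaps PHOSPHO2 on the same strand. KLHL24, KCTD15, KBTBD6, SPOP, KCTD12, KLHL13, KLHL31 and KLHL35 overlap no other gene's exons.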

How the data were processed

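RNA-seq counts per gene and library were deposited by the authors in 6 tables, with Partek named per the submitters' processing notes (version not given). For the aligner, genome build, annotation and strand, nothing is given in the sources used here. The tables of the LNCaP and C4-2 inhibitor experiments list symbols only and leave out low genes, so KBTBD4, whose symbol has more than 1 identifier elsewhere, drops out of fits that join tables by symbol. Groups follow titles and descriptions. A characteristic of PC3 shCSN5 replicate 2 names drug treatment, and its title and description, naming shCSN5, were used. Nothing says that replicates are separate cultures, so p-values reflect only how these libraries spread, which may be technical.

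Each comparison was fitted on its own 4 libraries with edgeR 4.0.16 (R 4.3.3; TMM, filterByExpr with a minimum count of 10, quasi-likelihood F test, Benjamini-Hochberg over all genes). SEs were obtained as the size of the log2 fold change over the square root of F. Average effects had the line as a term, and differences between lines or experiments were interaction terms. Scripts were tested on simulated counts. DESeq2 1.42.0, total-count scaling, no filter, a spread shared by the lines, a replicate block and omission of each library were tried.

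Named were COPS5, SPOP and SPOPL; up to 4 higher and 4 lower called members per comparison with the smallest adjusted p, a mean of at least 5 CPM and groups that did not overlap; members called alike in at least 3 knockdowns; members called in opposite directions in 2 knockdowns that also differed between lines; and up to 2 higher and 2 lower called genes of each other list. Others were named after their values were seen. Members and lists were chosen with earlier results of these data known.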

Additional observations from a re-analysis of the deposited data

Results flagged for a closer look

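The shCSN5 effect differed between the 4 lines for the following named members, by edgeR's test of the difference itself over 16 libraries, with adjusted p-values over all genes. Lines that share a table can be compared directly, and between tables line and table cannot be told apart. The causes were not tested.

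The smallest adjusted p-values were those of KCTD12 (2.7e-05), KCTD10 (3.6e-05), KLHL1 (3.9e-05) and KLHL13 (4e-05). KCTD11 (0.00024), KCTD21 (0.00044), KLHL28 (0.00057) and KLHL36 (0.00078) followed. KCTD10, KCTD11 and KCTD21 had positive log2 fold changes in LNCaP and C4-2, and those of KCTD10 and KCTD11 were negative in PC3. Adjusted p was 0.0016 for KCTD1, 0.0018 for KLHL31, 0.002 for KLHL24, 0.0026 for KBTBD6, 0.0028 for KLHL18 and 0.0032 for KLHL35. For KBTBD6 the log2 fold change was -1.07 in 22Rv1 and 0.06 in PC3, and for KLHL24 it was 1.30 in PC3 and 0.17 in 22Rv1. It was 0.0067 for KLHL5, 0.007 for SPOP, 0.0097 for KBTBD7 and 0.013 for KLHL4. SPOP was not called in any single line, with 0.44 in LNCaP and -0.23 in 22Rv1. Adjusted p was 0.019 for KCTD20, 0.02 for SPOPL, 0.022 for KLHL42, 0.031 for KCTD15, 0.032 for KCTD7, 0.048 for KLHL8 and 0.049 for KLHL29. KCTD15 had negative log2 fold changes in all 4 lines, from -1.30 in LNCaP to -0.51 in PC3, so its difference is one of size.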

How the results depend on the processing

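Of 92 called values of named members, 62 passed the test in every setting, 30 lost it in at least 1, and none changed sign. Other called values given above were not followed through the settings. Among them are KLHL36 in C4-2 shCSN5 cells, KBTBD6 in LNCaP and PC3 CSN5i-3 cells, and each gene's inhibitor minus knockdown effect. With the spread shared by the lines, the count of members called was 23 in the LNCaP and 18 in the PC3 knockdown, 24 in 22Rv1 and 29 in PC3 with the inhibitor; this setting was not run for the symbol-only tables of LNCaP and C4-2. With no filter on low counts it was 10 in the C4-2 knockdown and 6 for the inhibitor minus knockdown effect in 22Rv1, where total counts gave 1 and DESeq2 4. The labels do not say that replicate numbers pair libraries. Correlations of deviations ran from -0.89 (22Rv1 inhibitor) to 0.83 (PC3 knockdown; 0.55 in the 22Rv1 knockdown), and 2 pairs do not settle it. With the replicate block the count was 30 in the PC3 knockdown (16 higher, 14 lower), 5 with the inhibitor in 22Rv1, 7 for the average shCSN5 effect, 8 for the average CSN5i-3 effect, 0 for the difference of effects in 22Rv1 and 36 for that in PC3.

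Leaving out each library in turn gave 2 to 37 members in LNCaP, 10 to 12 in C4-2, 22 to 33 in 22Rv1 and 4 to 14 in PC3 with shCSN5, and 19 to 37, 4 to 17 and 41 to 44 with CSN5i-3 in LNCaP, 22Rv1 and PC3. It gave 36 to 42 for C4-2 titled C5i, 8 to 15 and 15 to 18 for the average shCSN5 and CSN5i-3 effects, 25 to 36 for the difference between lines, and 4 to 24, 0 to 5 and 10 to 25 for the difference of effects in LNCaP, 22Rv1 and PC3. With 2 libraries a group, the precision of every value rests on few samples, and members under a few CPM, such as KLHL31, KLHL41 and KCTD16, are limited by depth. Of the 56 members, 54 were kept at a mean of 2 CPM. The causes of these changes were not tested.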
